A study of Mus musculus with 4 samples.

Results

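The 8 genes described here form the core of the angiotensin and endothelin systems of the vessel wall: the angiotensin precursor gene Agt, the converting enzyme gene Ace, the angiotensin receptor genes Agtr1a, Agtr1b and Agtr2, the endothelin gene Edn1, and the endothelin receptor genes Ednra and Ednrb. They were taken as every probe, control spots left out, whose gene name on the array was one of these symbols, which gave 12 probes for 8 of the 37074 gene names on the array. RNA of abdominal aorta from male mice aged 12 weeks was measured 4 weeks after an operation with CaPO4, a calcium phosphate injury of the vessel, on one-colour Agilent arrays. The arrays titled W2 and W3 (replicates 1 and 2) were labelled wild type, and those titled K4 and K5 (replicates 1 and 2) were labelled SR-A1-/-, the knockout of the macrophage scavenger receptor encoded by Msr1. All 4 mice or pools had received CaPO4, so no uninjured aorta was compared. The labels name neither the mouse strain nor the deleted part of Msr1, and they do not say whether each array held RNA of 1 animal, so p-values reflect the spread between samples that may be technical repeats.

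In the renin-angiotensin system, renin cuts angiotensinogen to angiotensin I, and angiotensin-converting enzyme on the endothelial surface turns that into angiotensin II. Angiotensin II acts mainly through AT1 receptors, which contract smooth muscle and promote inflammation and matrix turnover in the vessel wall. Rodents carry a pair of AT1 receptor genes, Agtr1a and Agtr1b, whose proteins are very similar, and AT2, encoded by Agtr2, is abundant in the fetus and scarce in adult vessels. Endothelin-1, made mainly by endothelium, contracts smooth muscle through ETA (Ednra), while ETB (Ednrb) on endothelium releases vasodilators and clears the peptide. Infusion of angiotensin II is itself a common mouse model of aortic aneurysm.

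Because the AT1 genes are close relatives, as are the endothelin receptor genes, the probe letters are shown to let the probes of each pair be compared. Each probe has 60 bases and is named by the transcript base at which it starts. A stretch of 30 bases is shown, 5′ to 3′ as the deposited files give it, starting at the probe base given. Capitals mark the longest run that the probe shares with a probe of the related receptor gene. The matching run can lie outside the stretch shown, or on the further Ednra probe on the cDNA clone AK052292, which is not shown.
Agtr1a, probe starting at base 2185 of NM_177322, from probe base 2: cctccacatataTGTACATatgtatctcta
Agtr1b, probe starting at base 1943 of NM_175086, from probe base 18: catagttggaccAGTTTTatttcatatcta
Agtr1b, probe starting at base 1371 of NM_175086, from probe base 16: aggactctggacTGTACATggtttataaag
Ednra, probe starting at base 3526 of NM_010332, from probe base 16: actgggcattttCCCAGATgtttacagact
Ednrb, probe starting at base 3293 of NM_007904, from probe base 1: aaggacgcCCCAGATcttcaattttaagtt
Ednrb, probe starting at base 1101 of NM_001276296, from probe base 1: tataccctgaTGACCTgcgaaatgctcagg
Ednrb, probe starting at base 2484 of NM_001136061, from probe base 4: catgtgttcaacTTCATCatctgtaaatac

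The shared runs were 6 or 7 bases long. Probes were compared with other probes, and binding to the related transcript was not tested. No probe of any other gene on the array held 20 bases in a row of any of the 12 probes, on either strand. In mm9, the build of the files, the Agtr1a probe lies at chr13:30474638-30474697 on the plus strand. The Agtr1b probes lie at chr3:20213539-20213598 and chr3:20214111-20214170 and the Ednra probe shown at chr8:80186985-80187044, all on the minus strand. The Ednrb probes lie at chr14:104214484-104214543, chr14:104220870-104220929 and chr14:104215479-104215538, also on the minus strand. No annotation of that build was used here, so exon and untranslated positions were not assigned.

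The 75th percentile of the signal was 132 on W2 and 133 on K5, against 220 on W3 and 245 on K4. Each array had 57.6% to 62.6% of its 56605 probes well above background. Msr1, the gene named as deleted, read higher on the knockout-labelled arrays, at levels of -1.26 and -2.09 against -5.30 on W2, where it was not well above background, and -2.10 on W3, nearly level with K5. A further Msr1 probe read -6.40 on W2, where it was not well above background, and -2.12 on W3. On K4 and K5 that probe read -1.50 and -1.38, a difference of 2.82. Both probes go against the labels unless they lie outside what was deleted, so every direction here refers to the labels alone. At the probe that stands for Msr1 the difference was 2.03 ± 1.09 (limma, adjusted p = 0.965). It was 0.42 without W2 and 3.63 without W3, where limma called it (adjusted p = 0.0104) against W2 alone, an array that did not measure it above background. Over all genes the closest arrays, W2 with K5 (median absolute difference 0.277) and W3 with K4 (0.297), carried different labels.

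Levels are log2 signals relative to the 75th percentile of the array, and differences are knockout-labelled minus wild-type-labelled group means on that scale, given with the standard error of limma from 2 arrays per group. Of the 8 genes 7 passed the filter on dim probes, which keeps a probe that 2 or more of the 4 arrays measured well above background, and Agtr2 did not. On both knockout-labelled arrays, Agtr1a, Edn1, Ednra and Ednrb lay above both wild-type-labelled arrays, Agtr1b lay below both, and Agt and Ace overlapped. So 4 members lay higher and 1 lower, while over all 22497 tested genes 16.2% lay higher without overlap, 13.6% lower and 29.8% either way. The difference was above 0 for 6 of the 7 members and for 49.4% of all genes. None of the 7 passed an adjusted p of 0.05 in limma, nor did any gene of the whole table (0% called). At an unadjusted p under 0.05 there was 1 higher member, Ednra, and 1 lower member, Agtr1b, against 3.85% and 2.44% of all genes in those directions and 6.29% (1416 genes) either way. The median difference of the 7 was 0.76, beside a median of -0.0048 over all tested genes. With 2 arrays against 2, the smallest two-sided p an exact permutation test can give is 0.333, so that test cannot pass 0.05 for any gene in this design.

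**Figure D1:**
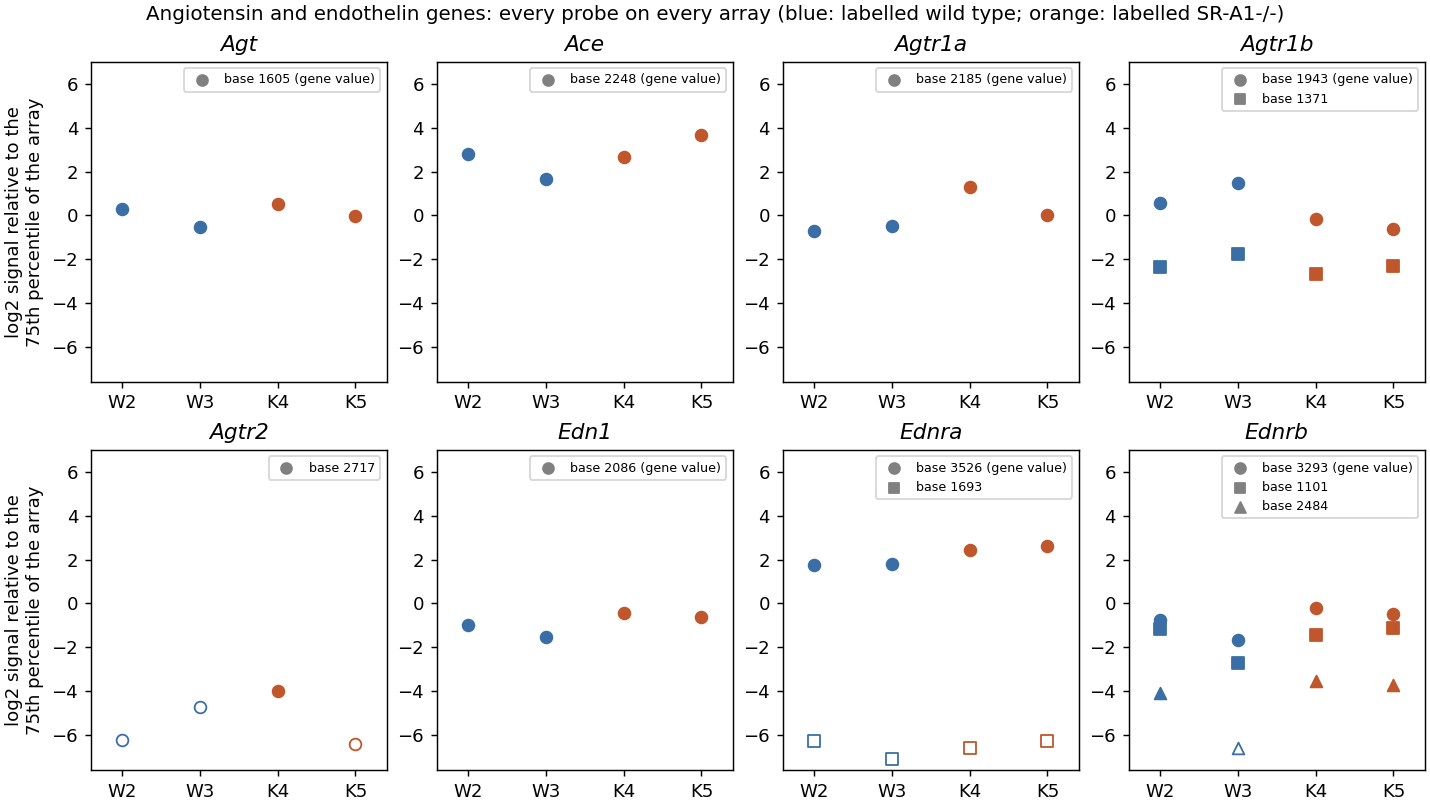
Log2 signal of every probe of the 8 genes relative to the 75th percentile of the array, by array, with blue for wild-type-labelled arrays and orange for SR-A1-/- labelled arrays. Filled symbols were well above background, open ones were not, and the symbol shape gives the probe by its first base in the transcript. Orange points lie above blue points for Agtr1a, Edn1, the Ednra probe at base 3526 and the Ednrb probes at bases 3293 and 2484, and below them for Agtr1b at base 1943.

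The precursor and the converting enzyme were the tested members whose groups overlapped. Agt, whose product is the only known precursor of angiotensin peptides, read 0.28 on W2, -0.52 on W3, 0.50 on K4 and -0.044 on K5 (chr8:127080661-127080720, minus strand). K4 was the highest and W3 the lowest, and K5 lay between the wild-type-labelled arrays. The difference was 0.35 ± 0.41 with a 95% interval from -0.71 to 1.40 (limma, adjusted p = 1.0). Without W3 it was -0.051 and without K4 0.075, against 0.74 without W2 and 0.62 without K5.

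Fat makes angiotensinogen, and fat markers stood apart on K5. The 10 white adipocyte markers averaged a level of 3.81 on W2, 4.67 on W3 and 4.76 on K4 but -0.29 on K5, where Adipoq read -2.93. Agt on K5 lay within the range of the other arrays. Relative to the white adipocyte mean, Agt lay at -3.53 on W2, -5.18 on W3, -4.26 on K4 and 0.25 on K5, so the groups overlapped. Relative to the mean of 10 fibroblast markers on the same array, Agt lay at -6.33 and -6.30 on the wild-type-labelled arrays and at -5.83 and -6.84 on the knockout-labelled ones, which overlap. The part of fat or fibroblasts in the Agt values was not tested.

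Ace read 2.81 on W2, 1.68 on W3, 2.66 on K4 and 3.66 on K5 (chr11:105850398-105850457, plus strand). K5 was the highest and W3 the lowest, and K4 lay just under W2, so the groups overlapped. The difference was 0.91 ± 0.55, a fold of 1.88, with a 95% interval from -0.51 to 2.33 (limma, adjusted p = 1.0). W2 and K5, the dimmer arrays, differed by 0.84, and W3 and K4, the brighter ones, by 0.97. Without W3 the difference was 0.34 and without K5 0.41, against 1.47 without W2 and 1.41 without K4. Ace is carried by endothelium and by activated macrophages. The 10 macrophage markers had a median difference of 1.16. Relative to their mean, Ace lay at 1.35 and -0.59 on the wild-type-labelled arrays and -0.46 and 0.81 on the knockout-labelled ones. Relative to the mean of 10 endothelial markers, Ace lay at 0.67 and -0.013 against 0.47 and 1.59. Both overlap, as Ace alone did, so these overlaps are no further result. The part of endothelium or macrophages in the Ace values was not tested.

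The AT1 receptor genes lay in opposite directions, neither past an adjusted p of 0.05. Agtr1a read -0.73 on W2, -0.48 on W3, 1.31 on K4 and 0.029 on K5. Both knockout-labelled arrays were higher, K4 by far the most, while the wild-type-labelled arrays lay 0.25 apart. The difference was 1.28 ± 0.50, a fold of 2.43, with a 95% interval from -0.00047 to 2.56 (limma, adjusted p = 0.792). Without K4 it was 0.64 and without K5 1.92.

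Agtr1b read 0.57 on W2, 1.46 on W3, -0.17 on K4 and -0.63 on K5 at the probe starting at base 1943. Both knockout-labelled arrays were lower, and W3 was the highest. The difference was -1.41 ± 0.42, a 2.67-fold lower level, with a 95% interval from -2.50 to -0.33 (limma, adjusted p = 0.634, the lowest of the members). At base 1371 the levels were -2.34, -1.75, -2.66 and -2.33 on W2, W3, K4 and K5. K5 and W2 were nearly level there, and the difference at that probe was -0.45 ± 0.34 in the limma fit of all 35102 tested probes (adjusted p = 1.0). The mean of both probes gave -0.93 for the gene. In that fit 3 probes of the whole table were called, which is 0.00855%, and none was a member's.

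Taken within each array, where the scaling between arrays cancels, Agtr1a minus Agtr1b was -1.30 on W2 and -1.95 on W3, against 1.48 on K4 and 0.66 on K5. The group means differed by 2.69, and both knockout-labelled arrays were higher. With the Agtr1b probe at base 1371 the values were 1.61, 1.27, 3.97 and 2.36 on W2, W3, K4 and K5, which differ by 1.73 in the means without overlap. Both versions share the Agtr1a values, and Agtr1b alone overlapped between groups at base 1371, so the second is not independent of the first. Probes bind unequally, so the sign of such a value says nothing of which receptor gene was more abundant, and only its change between arrays can be read. Both quantities were chosen after the values were seen and carry no test.

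Agtr2, the AT2 receptor gene, was well above background on 1 of the 4 arrays. Its level was -3.99 on K4, and on W2, W3 and K5 the probe read -6.25, -4.73 and -6.44 without rising well above background (chrX:21065805-21065864, plus strand). With 1 array measured, no fold is given.

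Edn1, Ednra and Ednrb all lay higher on the knockout-labelled arrays, with differences from 0.74 to 0.87, none past an adjusted p of 0.05. Edn1 read -1.0 on W2, -1.55 on W3, -0.44 on K4 and -0.60 on K5 (chr13:42403101-42403160, plus strand). The knockout-labelled arrays lay 0.15 apart and above both others. The difference was 0.76 ± 0.33, a fold of 1.69, with a 95% interval from -0.084 to 1.60 (limma, adjusted p = 0.848). It was 0.48 without W3 and 0.46 with normexp background correction, which adds an offset and compresses dim signals.

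Ednra, the receptor that contracts smooth muscle, had the closest wild-type-labelled replicates of the 7 genes. It read 1.74 on W2, 1.82 on W3, 2.43 on K4 and 2.61 on K5. The arrays of a group lay 0.076 (wild-type-labelled) and 0.18 (knockout-labelled) apart, and the groups stood apart. The difference was 0.74 ± 0.28, a fold of 1.67, with a 95% interval from 0.021 to 1.45 (limma, adjusted p = 0.778). Leaving out any of the 4 arrays gave 0.65 to 0.83, the narrowest such range of the 7 genes. A further Ednra probe, on the cDNA clone AK052292 at chr8:80184559-80184618, was not well above background on any array.

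Ednrb read -0.77 on W2, -1.68 on W3, -0.20 on K4 and -0.50 on K5 at base 3293. W3 was the lowest, and K5 and W2 lay 0.27 apart. The difference was 0.87 ± 0.41, a fold of 1.83, with a 95% interval from -0.18 to 1.93 (limma, adjusted p = 0.892). It was 0.42 without W3, 1.33 without W2 and 0.52 with normexp background correction. At base 1101 the levels were -1.18, -2.73, -1.46 and -1.14 on W2, W3, K4 and K5, and W2 fell between the knockout-labelled arrays. That difference was 0.66 ± 0.57, and -0.11 without W3. At base 2484 the levels were -4.09, -6.59, -3.54 and -3.71, and W3 was not well above background. The difference there was 1.71 ± 0.84 (limma over probes, adjusted p = 0.915), 0.47 without W3 and 2.96 without W2, where limma called it (adjusted p = 0.0242) with the dim W3 as the lone array of its group. All 3 probes thus had their lowest value on W3.

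**Figure D2:**
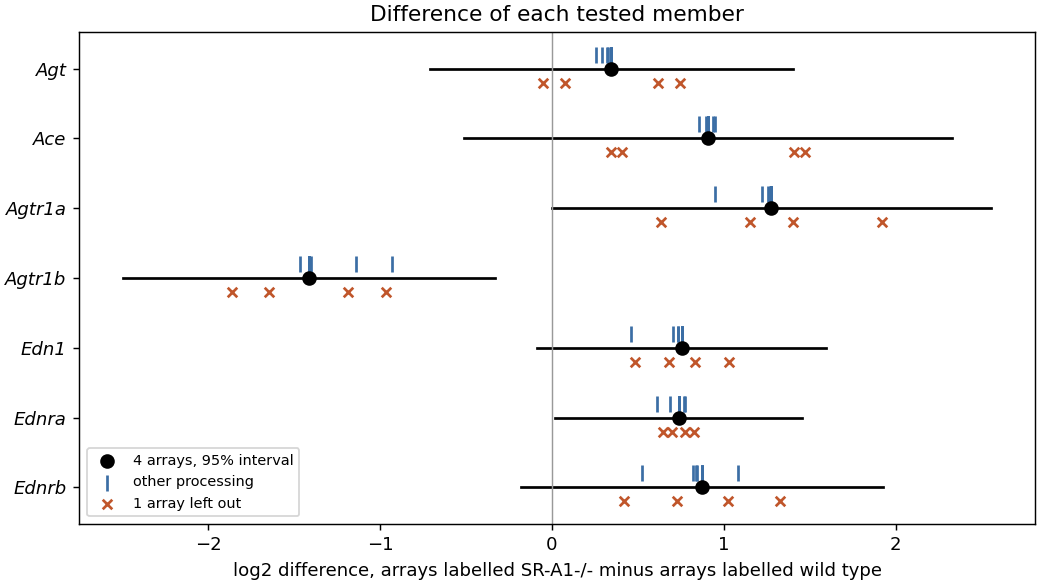
Log2 difference of each tested gene, SR-A1-/- labelled arrays minus wild-type-labelled arrays, with its 95% interval from limma (black), the values under other processing (blue ticks) and the values with 1 array left out (orange crosses). Ednra has the tightest cluster of crosses, from 0.65 to 0.83, and Agt has a cross below 0, at -0.051.

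The aorta is a mixture, and in bulk RNA fewer cells of a type and less RNA per cell cannot be told apart. Over all tested genes 16.2% were higher and 13.6% lower without overlap. The marker counts that follow are to be read beside those shares. Smooth muscle markers, 10 of 10 above background on all arrays, averaged 5.49 and 5.11 on the wild-type-labelled arrays and 4.60 and 4.89 on the knockout-labelled ones, and 6 of 10 were lower without overlap. Their summed signal, in units of the 75th percentile, was 1960.4 and 1429.9 against 1121 and 1359. Myh11, the smooth muscle myosin, read 6.25 and 6.11 against 5.62 and 5.75. Relative to the mean of these markers on the same array, Ednra lay at -3.75 and -3.29 on the wild-type-labelled arrays and at -2.17 and -2.28 on the knockout-labelled ones. The group means then differed by 1.30. As the marker mean was lower on the knockout-labelled arrays, subtracting it adds the same amount to the difference of any gene. The wider value is thus no further result about Ednra, and these relative levels were chosen after the values were seen. Agtr1a relative to the same markers lay at -6.23 and -5.59 against -3.29 and -4.86, also without overlap. Agtr1b did so at -4.93 and -3.65 against -4.77 and -5.52, which overlap, and the smooth muscle markers were lower on the same arrays. Of 10 skeletal muscle markers 6 were lower and 1 higher without overlap, with a median difference of -1.94 over the list. The higher one was Myh1, at -0.66 and 1.35 on W2 and W3 against 3.57 and 4.39 on K4 and K5. The list averaged 5.24 and 3.97 on W2 and W3 against 3.0 and 4.05 on K4 and K5. The part of smooth or skeletal muscle content in these values was not tested.

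Endothelial markers, 10 of 10 above background on all arrays, averaged 2.14 on W2, 1.70 on W3, 2.19 on K4 and 2.06 on K5. Of the 10, 4 were higher and 1 lower without overlap, with a median difference of 0.18 for these markers. Their summed signal was 97.3 and 77.0 on the wild-type-labelled arrays and 122 and 85.5 on the knockout-labelled ones. W3, the array with the lowest Edn1 and Ednrb, was also lowest for these markers. Relative to the endothelial mean, Edn1 lay at -3.14 and -3.25 against -2.63 and -2.66, a difference of 0.55. Ednrb did so at -2.90 and -3.38 against -2.39 and -2.56, a difference of 0.67. Neither overlapped. Schwann cells also express Ednrb, and relative to 8 Schwann and nerve markers it lay at -0.90 and -1.31 against -0.71 and -0.65. Macrophage markers averaged 1.46 and 2.28 against 3.12 and 2.84, and 5 of 10 were higher and 1 lower without overlap. Their summed signal was 165 and 340.1 against 263 and 275, which overlap. The part of endothelium, Schwann cells or macrophages in the endothelin values was not tested.

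**Figure D3:**
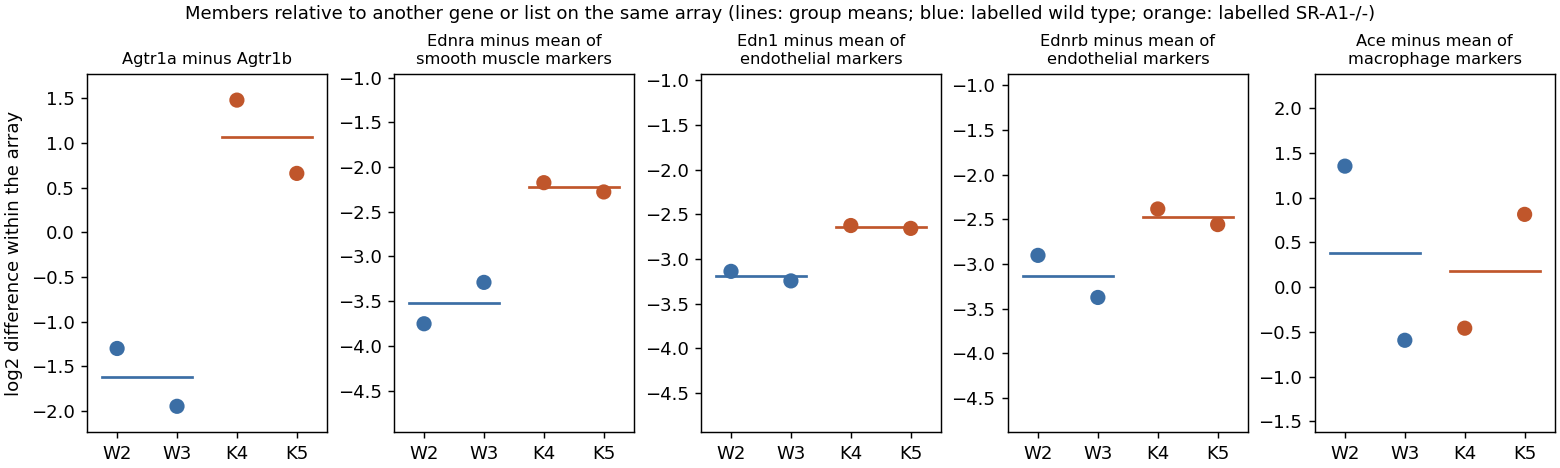
Members relative to another gene or to the mean of a marker list on the same array, in log2 units, with 1 point per array and a line at each group mean, on axes of equal span. Agtr1a minus Agtr1b (base 1943) is higher on both SR-A1-/- labelled arrays, by 2.69 in the means. Ednra, Edn1 and Ednrb (base 3293) stay apart after the marker mean is subtracted, as they were before it, and Ace overlaps both before and after. Of the pairs not drawn, Agtr1a with smooth muscle and Ednrb with Schwann and nerve markers stayed apart. Agtr1b with smooth muscle, Ace with endothelial, and Agt with white adipocyte or fibroblast markers overlapped.

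**Figure D4:**
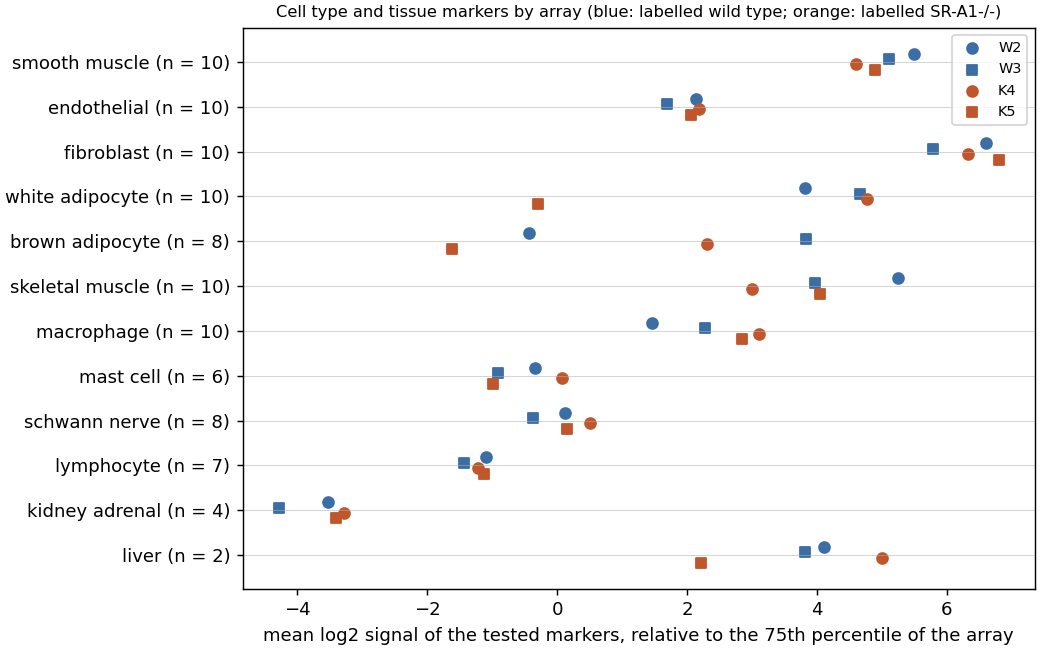
Mean log2 signal of the tested markers of each cell type or tissue, relative to the 75th percentile of the array, with 1 symbol per array. White adipocyte markers fall to -0.29 on K5, brown adipocyte markers are high on W3 and K4, and smooth muscle markers are lower on both SR-A1-/- labelled arrays. Skeletal muscle markers are highest on W2 (5.24) and lowest on K4 (3.0).

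Around the core, 19 other renin-angiotensin genes were all tested, and 7 were higher and 2 lower without overlap, with 0 passing an adjusted p in limma and 8 an unadjusted p under 0.05. Over all tested genes 16.2% were higher and 13.6% lower without overlap, and 6.29% had an unadjusted p under 0.05. The counts of this list and of the lists below are to be read beside those shares. The median difference of the 19 genes was 0.38. Ren2, a renin gene that some mouse strains carry as a copy of Ren1, read -1.34 and -0.63 on the wild-type-labelled arrays and 2.36 and 1.43 on the knockout-labelled ones. Its difference was 2.88 ± 0.46 (limma, adjusted p = 0.272), and limma called it without W3 (3.24, adjusted p = 0.0189) but not without W2 (adjusted p = 0.0638), K4 (0.546) or K5 (0.568). Ren1, chosen for this comparison after its values were seen, read -2.36 and -3.69 against -1.52 and -1.44. Their probes share at most 6 bases in a row, but the transcripts are near-identical copies, so which gene gave either signal is uncertain. Mrgprd, a receptor for an angiotensin-derived peptide, was not well above background on the knockout-labelled arrays (limma on the values as read, adjusted p = 0.128). It was 4.21-fold lower there when the measured group's mean was set against a limit on each dim array. That limit was the higher of the probe's own signal and the lowest signal of any probe well above background. Some dim probes read above that lowest signal, as Agtr2 did on W3, so such a fold is no strict bound. Limma called Mrgprd with W2 left out (adjusted p = 0.00333) and with W3 left out (adjusted p = 0.00591), but not without K4 (adjusted p = 0.298) or K5 (adjusted p = 0.469), and all these fits rest on knockout-labelled values that were not measured above background.

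Of 7 other endothelin genes 4 were tested, as Edn2, Edn3 and Kel did not pass the filter on dim probes. The converting enzyme genes Ece1 and Ece2 differed by 0.20 ± 0.34 and 0.10 ± 0.27, and Mmel1, a relative of neprilysin, by 0.81 ± 0.32 (limma, adjusted p = 0.805). Mmel1 was above background on 1 of the wild-type-labelled arrays. Its difference was 0.16 with normexp background correction, and Ece1 was -0.11 without W3. The median of the 4 was 0.15, beside 0.76 for the members, and it was 0.69 when the mean of a gene's probes was used, which gave 0.54 for Ece1 and 0.84 for Ece2.

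Signalling genes downstream of these receptors had a median near that of all genes. Of 24 genes for Gq and G12 signalling 4 were higher and 6 lower without overlap, with a median of 0.047, and 0 passed an adjusted p while 1 passed an unadjusted p. That gene was Rgs5, a brake on Gq signalling in mural cells, which read 6.19 and 6.02 against 4.80 and 5.01, a difference of -1.19 ± 0.28 (limma, adjusted p = 0.485). The arrestin gene Arrb2 differed by 0.87 ± 0.41 and the kinase gene Prkcd by -0.44 ± 0.29. Arrb2 was 0.42 without K4 and 1.32 without K5.

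Genes that angiotensin II or endothelin-1 are known to induce gave a median of -0.098 over 17 tested genes, which ranged from -0.60 to 0.41 with 1 array left out, with 2 higher and 1 lower without overlap and 0 at an unadjusted p under 0.05 or an adjusted p in limma. The oxidase gene Nox1 differed by -0.86 ± 0.34, or -0.27 with normexp background correction, the adhesion molecule gene Vcam1 by 0.73 ± 0.41, and osteopontin, Spp1, by 2.53 ± 1.80. Spp1 read -1.81 and 2.73 against 1.36 and 4.61, so its groups overlapped. With 1 array left out Spp1 ranged from 0.26 (without W2) to 4.80 (without W3) and Vcam1 from 0.27 (without K5) to 1.20 (without K4). W3 had the highest mean level of this list, 2.63, against 0.84 on W2, 1.35 on K4 and 2.03 on K5.

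The mineralocorticoid list, the arm through which angiotensin II acts on salt balance, had 5 of 8 genes tested and none without overlap, with a median of -0.051 and 0 genes at an adjusted or unadjusted p under 0.05 in limma. Sgk1, Scnn1b and Scnn1a had the smallest p, at -0.37 ± 0.62, 0.32 ± 0.80 and -0.10 ± 0.32, and each changed sign when 1 array was left out. Scnn1b was above background on 1 of the wild-type-labelled arrays.

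Vasodilator genes, of which 16 of 18 were tested, had a median of 0.0054, or -0.17 without W2, with 4 higher and 5 lower without overlap, 0 at an adjusted p in limma and 1 at an unadjusted p under 0.05. Adm, which encodes the vasodilator peptide adrenomedullin, read 0.048 and 0.052 against 1.20 and 2.63, a difference of 1.87 ± 0.53 (limma, adjusted p = 0.609). Ramp2, a partner of the adrenomedullin receptor, differed by 0.58 ± 0.36, and the prostacyclin synthase gene Ptgis by -0.54 ± 0.28. With 1 array left out Adm ranged from 1.15 (without K5) to 2.58 (without K4) and Ramp2 from 0.22 (without W3) to 0.94 (without W2).

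Other vasoactive receptors lay both ways, 5 higher and 7 lower without overlap of 19 tested, with a median of -0.073, or 0.16 without K5, 0 at an adjusted p in limma and 5 at an unadjusted p under 0.05. The serotonin receptor gene Htr2a differed by -1.44 ± 0.31 and the adrenoceptor gene Adra1a by -1.72 ± 0.42, both coupled to Gq like AT1 and ETA. Adra1a was not above background on K5, so its value there is a reading in the background. The muscarinic receptor gene Chrm3 was not well above background on the wild-type-labelled arrays (limma on the values as read, adjusted p = 0.532). Against the limit described for Mrgprd it was 2.41-fold higher on the others, which is no strict bound either. With 1 array left out its difference ranged from 1.79 (without W3) to 3.90 (without W2). All these values rest on wild-type-labelled signals that were not measured above background. With normexp background correction the Htr2a and Adra1a differences were -0.67 and -0.36.

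**Figure D5:**
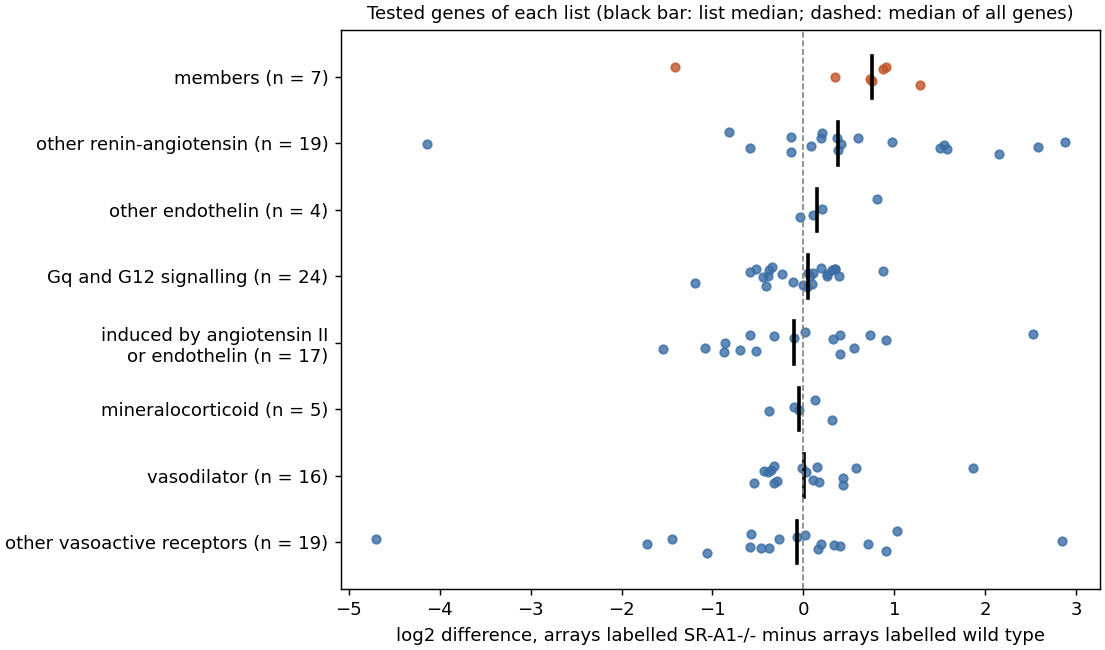
Log2 difference of each tested gene in the member set (orange) and in 7 related gene lists (blue), SR-A1-/- labelled arrays minus wild-type-labelled arrays, with black bars at list medians and a dashed line at the median of all genes. The members' median is 0.76, and the medians of the other lists lie between -0.098 and 0.38.

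Genes with the pattern most like each member were found by the root mean square difference over the 4 arrays after each gene's own mean was subtracted, among 20061 genes above background on all arrays. For Agtr1a they were Gpr34, a lysophospholipid receptor (0.048), Dner (0.074) and the eosinophil chemokine gene Ccl11 (0.082), and 20 genes lay within 0.2. For Agtr1b they included Cntn1 (0.068) and E130006D01Rik (0.087), with 23 genes within 0.2. Ace was closest to Fmod, a collagen-binding proteoglycan (0.055), followed by Fam188b (0.063) and Peli3 (0.078), with 65 genes within 0.2. Edn1 was closest to Rab3il1 (0.017), the potassium channel gene Kcnn3 (0.018) and Zmynd15 (0.024), and 477 genes lay within 0.2. For Ednrb 163 and for Agt 398 genes lay within that distance, and Ednra, which spanned less than 1, was not searched. With 4 arrays many genes share a pattern, and the AT1 genes had the fewest neighbours of the 6 searched. The AT1 genes also had the widest spans, 2.04 for Agtr1a and 2.09 for Agtr1b, against 1.02 to 1.97 for the others. With a fixed limit of 0.2, their low counts cannot be told apart from their wide spans.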

How the data were processed

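The processed signal is an intensity that, per the file headers, came from version 12.0.3.1 of Feature Extraction after background subtraction and detrending, with surrogates for low values. Version 10.7 and limma stand in the submitters' processing notes, where neither has a stated role. The mean signal of each spot, the local background intensity and the flags of 0 or 1 are as deposited. The authors' deposited values are log2 values with almost equal quartiles in the 4 columns, matched by probe name for 56605 of 56732 entries. The steps behind them are not given in the sources used here.

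Here log2 signals were taken relative to each array's 75th percentile. Outlier spots (74 to 102 per array) were left out, and repeated spots averaged. The brightest probe above background on at least 2 arrays stood for each gene. The groups were compared with limma 3.58.1 in R 4.3.3 (lmFit and eBayes, two-sided, Benjamini-Hochberg over all genes), after a check on simulated data. Precision is limited by having 2 arrays a group. Named genes were the members, Msr1, the 3 genes with the smallest p in each related list, the first markers of each cell type, and the 3 genes most like each member that spanned at least 1. Ren1 was added, and so, after the values were seen, were the levels relative to marker means and the AT1 balance. Members, lists and tests were chosen with earlier results of these data known. The alternatives were other normalisations, normexp correction with an offset of 50, other filters, the deposited values, outliers kept, probe means, an intensity trend, signal level as a block, and each array left out. Lists were described by counts and medians only. Some genes that the naming rule selects are not reported here. Plots used matplotlib 3.10.9.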

Additional observations from a re-analysis of the deposited data

How the results depend on the processing

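Every alternative that kept all 4 arrays kept the sign of all 7 members' differences. Other filters, outliers kept, an intensity trend and signal level as a block left those differences unchanged, so they did not test the sign. Probe means could move only a gene with more than 1 tested probe. No member gene passed an adjusted p of 0.05 in any setting. The count of genes passing in limma, 0 as reported, was 8 with quantile normalisation, 7 with median scaling, 8 with the deposited values, 21 with normexp correction, 8 without a filter on dim probes, 5 with an intensity trend, and 17 at an adjusted p under 0.1. With signal level as a block it was 0, 2825 genes had an unadjusted p under 0.05, and the members' adjusted p lay between 0.259 and 0.799. That unadjusted count was 918 with normexp correction, 2181 without W2 and 882 without K5. Leaving out 1 array gave 0 to 371 genes at an adjusted p under 0.05 (260 without W2, 371 without W3, 0 without K4 or K5), 4 to 6 members higher without overlap and 1 lower. Non-overlap is easier to meet with 1 array left in a group, and no share over all genes is given for it. These member counts thus cannot be set beside the shares of the full design, and a count above 4 is no strengthening. With 1 array left out the Agt difference ranged from -0.051 to 0.74. Ednrb ranged from -0.11 to 1.43 at base 1101 and from 0.47 to 2.96 at base 2484. Among related genes Ece1 ranged from -0.11 to 0.52, Sgk1 from -1.24 to 0.49, Scnn1b from -0.85 to 1.48 and Scnn1a from -0.33 to 0.12. Normexp correction shrank dim genes, with Mrgprd at -0.65 and Chrm3 at 0.33. The lone array left in a group was assumed to vary like the other group. No paired analysis was possible because the numbers in the sample titles (2 and 3 against 4 and 5) are not shared between the groups, and replicates 1 and 2 here only name samples. Signals near background and 2 arrays a group limit what can be detected.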
